A study of Mus musculus with 6 samples.

Results

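The 6 islet libraries of this experiment carry a code in their titles, and they were chosen by that code: KO B114, HET B123 and KO B125 have the 3 lowest codes (low code), and HET B126, HET B127 and KO B130 the 3 highest (high code). All 6 of 6 libraries in the series are used, 3 on each side, with both genotypes on each side. KO mice (Abca12 tm1d) had a floxed Abca12 allele deleted by Rip1-Cre, and HET mice carried Rip1-Cre and 1 floxed Abca12 allele, so Cre is shared by every library. Abca12 encodes a lipid transporter, and Rip1-Cre uses the rat insulin promoter, so the deletion is aimed at beta cells within whole islets that also hold other cells. All mice were C57BL/6J and 5 weeks old. RNA of whole islets was sequenced from poly(A)-based libraries. The labels do not say what the code records, nor whether islets of several animals were pooled. KO B125 held 459 RPM of Xist and 49.8 RPM of the Y-linked Ddx3y (RPM, reads scaled by library size), transcripts of female and of male cells, so RNA of 1 animal alone is not established for it.

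Islets are clusters of hormone cells, mostly beta cells, that are freed from the pancreas by enzymatic digestion and then picked or cultured. Immediate early genes are transcription factors and signalling genes that are induced within minutes of calcium, kinase or stress signals and need no new protein. Heat shock factor drives cytosolic chaperones through heat shock elements, and NRF2 drives glutathione and NADPH enzymes through antioxidant response elements. Acinar cells are the enzyme-secreting cells of the exocrine pancreas that surrounds the islets, and their transcripts are a usual measure of exocrine tissue carried along with islets.

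The promoters below are shown because chaperone, immediate early and NRF2 genes differed widely between the sides, and each of these 4 windows holds a motif of a factor known to drive such genes. They were picked after the matches were seen. Each runs from 250 bases before to 50 bases after the gene's start in RefSeq (GRCm38.p6), and capitals mark the motif, searched on both strands. Hsph1 (chr5:149636287-149636586, minus strand) holds a heat shock element, searched as GAA, TTC and GAA with 2 free bases between each. Btg2 (chr1:134079106-134079405, minus strand) holds a cyclic AMP response element, TGACGTCA. Egr2 (chr10:67537316-67537615, plus strand) holds a CArG box, the site of serum response factor. Txnrd1 (chr10:82858956-82859255, plus strand) holds an antioxidant response element, TGACNNNGC. The tables hold further windows for Hsph1, Egr2 and Txnrd1, which have more than 1 annotated start.
Hsph1: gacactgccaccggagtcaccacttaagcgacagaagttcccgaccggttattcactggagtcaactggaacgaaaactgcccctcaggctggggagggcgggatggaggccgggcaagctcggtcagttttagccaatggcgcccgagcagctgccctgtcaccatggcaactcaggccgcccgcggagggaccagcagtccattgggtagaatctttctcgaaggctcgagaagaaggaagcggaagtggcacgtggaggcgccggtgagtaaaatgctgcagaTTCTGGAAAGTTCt
Btg2: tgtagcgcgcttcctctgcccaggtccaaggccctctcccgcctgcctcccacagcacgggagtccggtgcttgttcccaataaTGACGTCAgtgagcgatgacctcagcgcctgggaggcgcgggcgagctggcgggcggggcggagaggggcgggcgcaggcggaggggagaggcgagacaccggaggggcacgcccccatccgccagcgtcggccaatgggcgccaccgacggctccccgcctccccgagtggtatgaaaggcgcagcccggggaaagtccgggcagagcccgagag
Egr2: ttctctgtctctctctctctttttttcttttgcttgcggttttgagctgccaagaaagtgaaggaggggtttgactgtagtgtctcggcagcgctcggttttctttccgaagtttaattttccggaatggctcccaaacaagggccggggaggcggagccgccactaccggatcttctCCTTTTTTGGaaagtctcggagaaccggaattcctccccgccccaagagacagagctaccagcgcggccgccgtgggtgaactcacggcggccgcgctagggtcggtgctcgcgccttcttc
Txnrd1: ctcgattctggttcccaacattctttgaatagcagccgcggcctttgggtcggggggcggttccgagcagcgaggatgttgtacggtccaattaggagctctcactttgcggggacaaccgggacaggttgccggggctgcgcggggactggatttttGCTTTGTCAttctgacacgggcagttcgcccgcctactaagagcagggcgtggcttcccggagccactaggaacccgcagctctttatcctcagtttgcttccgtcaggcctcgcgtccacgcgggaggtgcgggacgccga

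These motifs were searched in the windows of the list members and of all genes tested. The heat shock element was present in 22.2% of heat shock chaperone promoters (4 of 18, in Chordc1, Hspd1, Hspe1 and Hsph1), against 0.614% of the 10420 promoters of all genes tested. Hspd1 and Hspe1 lie head to head, so their windows overlap. The antioxidant response element was present in 35.3% of NRF2 target promoters (6 of 17, in G6pdx, Gclm, Me1, Pgd, Srxn1 and Txnrd1), against 17.2% of all. It was present in 32.1% of immediate early promoters (9 of 28) as well. The cyclic AMP response element was found in 10.7% of immediate early promoters (3 of 28, in Btg2, Dusp1 and Maff), against 3.76% of all, and the CArG box in 14.3% (4 of 28, in Dusp5, Egr2, Srf and Zfp36), against 1.57%. Antioxidant and cyclic AMP matches cannot overlap, because their letters conflict at every offset. A match describes letters in this window and was not tested as a binding site.

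The RPM denominators were 29186296 to 30934062 reads in low code libraries and 27447026 to 35511008 in high code libraries, and did not separate the sides (exact two-sided permutation test, p = 0.5). Listed genes took 64.9% to 65.8% of them in low code and 66.1% to 68.8% in high code libraries. Genes with at least 1 read numbered 20124, 19922 and 20493 in KO B114, HET B123 and KO B125, against 19399, 19541 and 19230 in HET B126, HET B127 and KO B130. The listed share and the genes with a read are given as descriptions, without a test. They come from the same reads as the component with which the sides were proposed, described below. Abca12 had 2 reads in KO B114 and 0 in the other 5 libraries, so it does not check the genotype labels. Ins2, Ins1 and Gcg were among the most abundant transcripts of every library, as the tissue label states.

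The sides were selected on measured values in this sense: they coincide with the first principal component of log2(RPM + 1), which held 70.5% of the variance, and the split was proposed with that component known. Component scores were -23.3 in KO B114, -46.7 in HET B123 and -41.2 in KO B125, against 36.6 in HET B126, 40.2 in HET B127 and 34.5 in KO B130. The low minus high code values below are therefore descriptions, and their calls support nothing about the codes themselves. A gene is called where the limma test of low minus high code, with genotype as covariate, gives an adjusted p under 0.05 over 14238 genes, those averaging 1 RPM or more. Called genes numbered 4357 (30.6%), of which 1572 (11.0%) were higher and 2785 (19.6%) lower in low code libraries. The sides did not overlap for 48.1% of genes, with the 3 low code libraries above the 3 high code libraries for 16.8% and below them for 31.3%. Differences of at least 1 on the log2(RPM + 1) scale were found in 646 called genes that were higher and 342 that were lower. The genes just inside the threshold differed by 0.43 to 0.56 in size and those just outside by 0.38 to 0.55. Without KO B125 the calls were 1051 higher and 1744 lower, without HET B123 they were 1133 and 1011, and without HET B127 they were 1070 and 1285. In bulk islets, fewer cells of a type and less RNA per cell cannot be told apart.

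**Figure D1:**
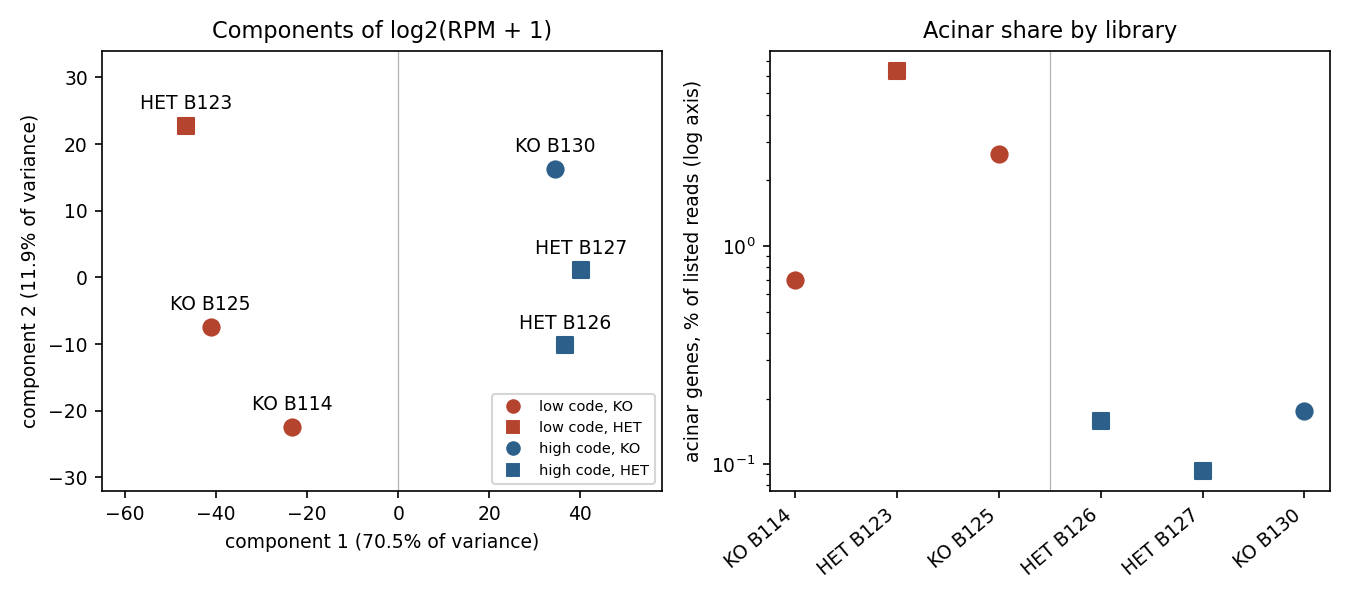
Scores of the 6 libraries on the first 2 principal components of log2(RPM + 1) (left), and the share of listed reads in acinar genes on a log axis (right). Low code libraries lie at -46.7 to -23.3 on the first component and hold 0.697% to 6.35% acinar reads, high code libraries at 34.5 to 40.2 and 0.0933% to 0.176%.

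The share of calls in each direction depends on the scaling. The median low minus high difference of all genes was -0.13 with the deposited RPM, -0.02 with median-of-ratios or upper quartile scaling, and -0.04 with scaling to listed reads outside acinar genes. Of the called genes, 36.1% were higher in low code libraries with RPM, against 53.2% (median of ratios), 52.9% (upper quartile) and 49.8% (outside acinar genes). Small list medians below are to be read against the shift of -0.13. The share of reads in acinar genes moves with the code side, and with its log2 value as a second covariate the calls numbered 56 higher and 16 lower over all genes. With only 6 libraries, and a share that does not overlap between the sides, that fit has little power to call genes. Few or no calls in it, here and below, therefore do not measure the acinar part of a difference. In that fit the lists described here had 0 called members, except 7 immediate early genes, 3 heat shock chaperones, 3 macrophage markers, 2 glucocorticoid-responsive genes, 1 clock gene and 1 gene silent in beta cells called higher. Called lower in it were 1 NRF2 target, 2 acinar genes, 1 cell cycle gene, 2 glutathione transferases, 2 UDP-glucuronosyltransferase loci and 1 target of the aryl hydrocarbon receptor. The covariate is computed from the acinar genes, so this fit does not test the acinar genes themselves.

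Immediate early genes had the widest differences among the stress and signalling lists, and their mean level was higher in each low code library than in any high code library. Of 37 genes tested, 33 were called higher and 1 lower in low code libraries, with a median log2 difference of 2.72. Fosb, an AP-1 subunit, had 466, 1200.4 and 823 RPM in KO B114, HET B123 and KO B125, against 3.29, 6.00 and 6.56 RPM in HET B126, HET B127 and KO B130. The sides lay far apart, a log2 difference of 7.07 ± 0.42 (SE). Npas4, a calcium-induced transcription factor, had 186, 217 and 168 RPM in low code libraries, against 2.68, 2.38 and 2.48 RPM in high code libraries, and differed by 5.81 ± 0.14. Its libraries were nearly level within each side. Fos had 523, 860.0 and 624 RPM in low code libraries, against 11.9, 59.2 and 16.8 RPM in high code libraries. HET B127 was thus the highest of the high code libraries, and Fos differed by 4.98 ± 0.69.

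The nuclear receptor gene Nr4a1 differed by 5.07 ± 0.27, the activity-regulated gene Arc by 4.99 ± 0.19 and Atf3, a stress-induced factor, by 4.88 ± 0.42. Jun, the partner of Fos in AP-1, had 600.5, 974 and 627 RPM in low code libraries and 49.1, 85.7 and 72.6 RPM in high code libraries. Srf, the serum response factor whose site is the CArG box, had 142 to 192 RPM in low code and 29.0 to 36.9 RPM in high code libraries. Egr1 did not pass, with 421, 819 and 649 RPM in low code libraries, against 49.3, 264 and 46.2 RPM in high code libraries, a difference of 3.15 ± 0.81 (limma adjusted p = 0.0621). HET B127 stood above HET B126 and KO B130 for Egr1 as for Fos. The 1 called member that was lower was Ctgf, a matrix-associated growth factor gene, at -1.38. Egr2 and Btg2, whose promoters are printed above, differed by 2.81 ± 0.23 and 2.28 ± 0.25. With the acinar covariate the list's median was 2.13 and 7 members were called.

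**Figure D2:**
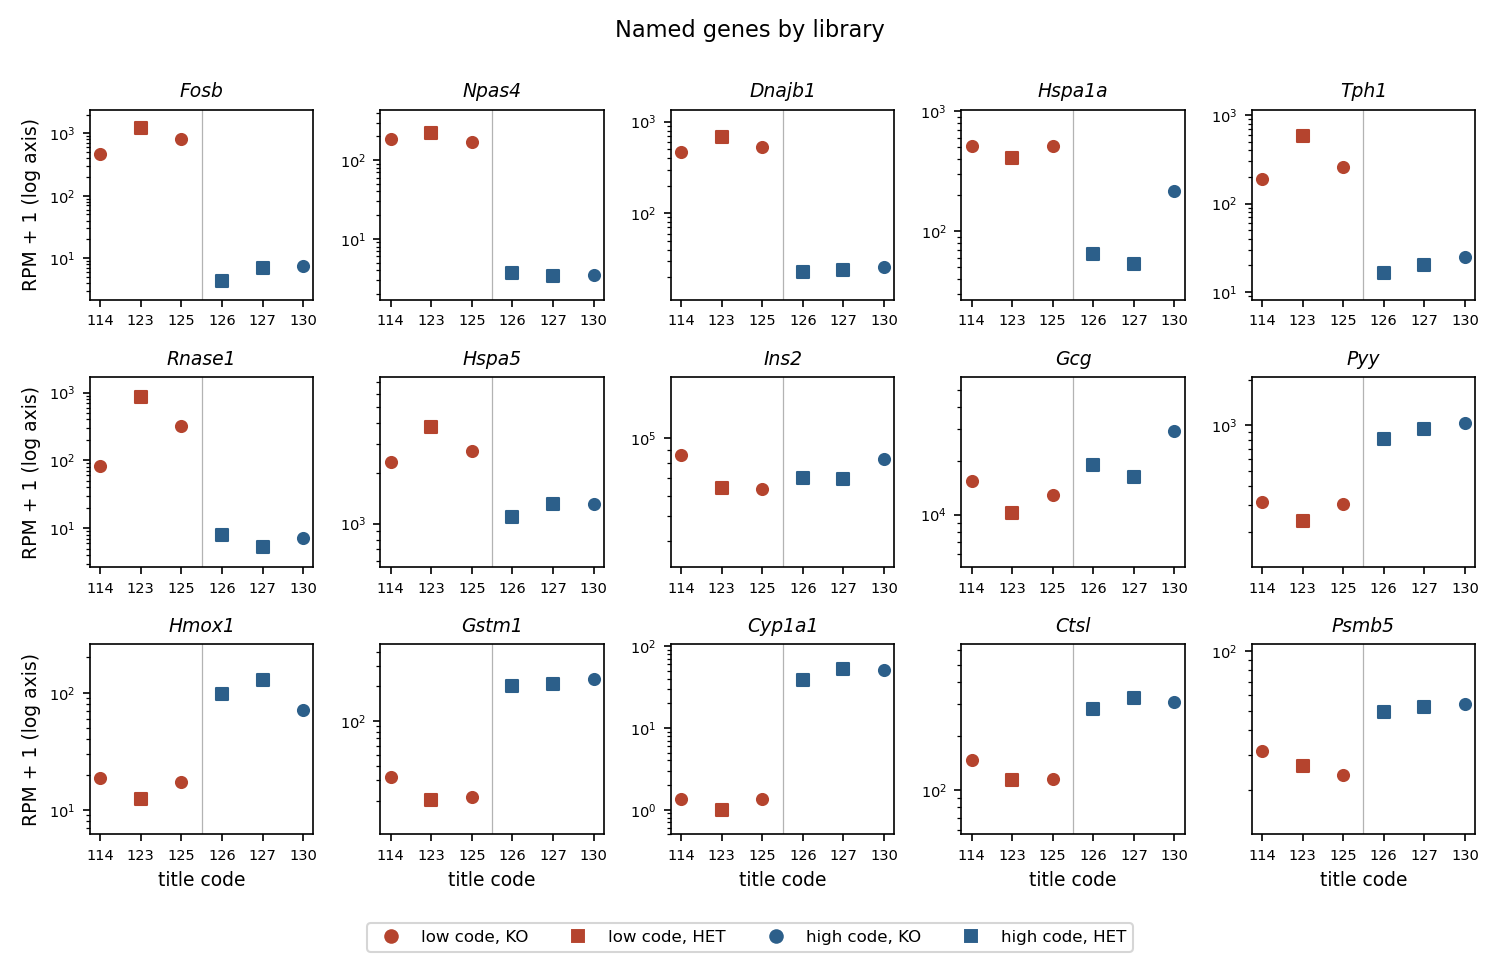
RPM + 1 of 15 genes in each library, on a log axis of its own per gene, with libraries in code order and the low code side left of the line. Fosb, Npas4, Dnajb1, Hspa1a, Tph1, Rnase1 and Hspa5 are higher in low code libraries, Ins2 overlaps, and Gcg, Pyy, Hmox1, Gstm1, Cyp1a1, Ctsl and Psmb5 are lower.

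Heat shock chaperones of the cytosol and of mitochondria (Hspd1 and Hspe1 among the latter) were also high in low code libraries. Of 22 genes, 18 were called higher and 0 lower, with a median of 1.27. Dnajb1, the Hsp40 cochaperone that hands clients to Hsp70, had 464, 675 and 524 RPM in low code libraries, against 21.8, 23.0 and 24.7 RPM in high code libraries. It differed by 4.56 ± 0.17, with no overlap. Hsph1, an Hsp110 nucleotide exchange factor, had 791, 778 and 842 RPM in low code libraries and 94.9, 105 and 108 RPM in high code libraries, a difference of 2.93 ± 0.14. The inducible Hsp70 gene Hspa1a had 509, 406 and 513 RPM in low code libraries, against 63.4, 52.7 and 217 RPM in high code libraries. KO B130 was thus the highest high code library for it, as for its near-identical copy Hspa1b, with which its reads may be split. Hspa1a differed by 2.01 ± 0.31 and Hspa1b by 2.43 ± 0.32. The small chaperone gene Hspb1 differed by 2.66 ± 0.15, and the inducible Hsp90 gene Hsp90aa1 by 1.78 ± 0.16. The constitutive forms Hspa8 and Hsp90ab1 differed by less, 1.35 ± 0.18 and 0.96 ± 0.16. With the acinar covariate the median was 0.83 and 3 members were called.

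Among chaperones and degradation factors of the endoplasmic reticulum, 9 of 28 were called higher and 2 lower, with a median of 0.29. Derl3, a factor that extracts misfolded proteins, had 103, 156 and 105 RPM in low code libraries and 12.4, 24.2 and 12.4 RPM in high code libraries, a difference of 3.03 ± 0.22. Hspa5, the luminal Hsp70 (BiP), had 2334, 3765 and 2717 RPM in low code libraries, against 1098, 1308 and 1307 RPM in high code libraries, a difference of 1.30 ± 0.20. HET B123, the library with the most acinar RNA, was the highest for both. On the high code side HET B127, with the least acinar RNA, was the highest for Derl3. The part of acinar RNA in these values was not tested. Herpud1 and Syvn1, parts of the degradation complex, differed by 1.52 ± 0.18 and 1.43 ± 0.18. The 2 called lower were Derl1 and Wfs1, each at -0.48, and 0 were called lower with median-of-ratios scaling. The list's median was -0.02 between KO libraries and 0.76 between HET libraries, and it was -0.30 with the acinar covariate, which turned its direction and called 0 members. Of 24 genes for translocation into the endoplasmic reticulum, 1 was called, Ssr2 at -0.54, and the median of -0.10 was 0.02 with median-of-ratios scaling.

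Targets of ATF4, which serves amino acid supply and the integrated stress response, went mostly the other way, with 3 of 23 called higher and 12 lower and a median of -0.44. Atf5 and Trib3 each differed by -1.52, and the serine synthesis gene Psat1 by -0.96. The 3 called higher were Ppp1r15a at 1.39, Ddit3 at 0.90 and Ddit4 at 0.51. Atf4 itself had 297, 386 and 326 RPM in low code libraries and 283, 387 and 289.8 RPM in high code libraries, and was not called. Of 20 aminoacyl-tRNA synthetases, 10 were called lower and 0 higher, with a median of -0.40.

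NF-kB and cytokine genes had 12 of 19 members called higher in low code libraries and 1 lower, with a median of 1.58. Tnfaip3, a feedback inhibitor of NF-kB, had 23.8, 54.1 and 49.2 RPM in low code libraries and 4.39, 4.07 and 3.28 RPM in high code libraries, a difference of 3.22 ± 0.26. The inhibitor gene Nfkbia differed by 1.88 ± 0.18, and the subunit gene Rel by 2.75 ± 0.29. The chemokine genes Cxcl1 and Cxcl2 were at 2.42 to 4.98 RPM in low code libraries and at or below 0.364 RPM in high code libraries. The 1 called lower was the interleukin receptor Il1r1 at -0.57. With the acinar covariate the median was 0.98 and 0 members were called. Interferon response genes had no common direction, with 3 of 24 called higher and 5 lower, and 5 higher and 4 lower with median-of-ratios scaling. Their share called lies near the 30.6% of all genes.

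Glucocorticoid-responsive genes had 9 of 14 members called higher and 3 lower, and circadian clock genes 9 of 19 called higher and 1 lower, with medians of 0.91 and 0.47. Per1, a clock repressor on both lists, had 161, 253 and 215 RPM in low code libraries, against 31.0, 35.7 and 25.1 RPM in high code libraries, a difference of 2.87 ± 0.16. Zbtb16, a factor induced by glucocorticoids, differed by 2.31 and Tsc22d3 by 1.03. The clock repressor Nr1d1 differed by 1.84 ± 0.19; it shares 263 exonic bases with Thra on the opposite strand, and whether counting used strand is not stated here. The metallothionein genes Mt1 and Mt2, on the glucocorticoid list, were lower, at -1.45 ± 0.35 and -1.65 ± 0.37, and turned to 0.54 and 0.37 with the acinar covariate.

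Genes of the lactogen response, induced in islets by prolactin and placental lactogen, had 7 of 14 called higher and 0 lower, with a median of 0.60. Tph1, which makes serotonin in beta cells, had 189.5, 572 and 256 RPM in low code libraries, against 15.4, 19.5 and 23.7 RPM in high code libraries, a difference of 4.07 ± 0.41. The prolactin receptor gene Prlr had 493, 707 and 692 RPM in low code libraries and 216, 137 and 193 RPM in high code libraries, a difference of 1.81 ± 0.22. Cish and Socs2, direct targets of STAT5, differed by 0.41 and 0.10 and were not called.

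**Figure D3:**
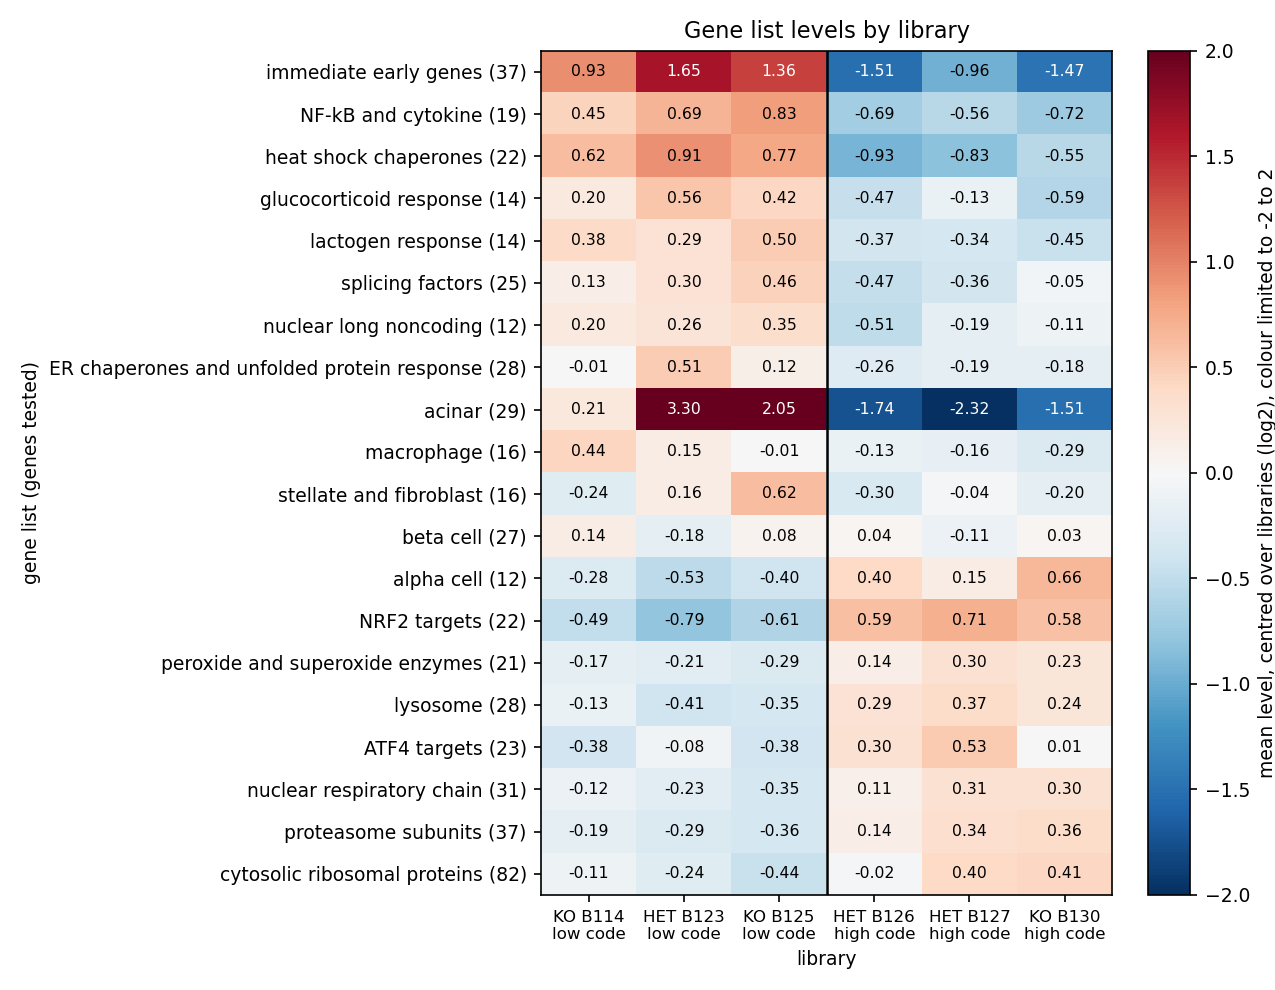
Mean level of 20 gene lists in each library, on the log2(RPM + 1) scale after centring each gene over the 6 libraries, with the number of genes tested per list. Immediate early genes are at 0.93 to 1.65 in low code and -1.51 to -0.96 in high code libraries, NRF2 targets at -0.79 to -0.49 and 0.58 to 0.71, and beta cell genes between -0.18 and 0.14 in all 6.

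NRF2 targets were low in low code libraries, with 20 of 22 called lower, 0 higher and a median of -1.13. Gstm1, a glutathione transferase, had 31.5, 19.2 and 20.5 RPM in low code libraries, against 201, 211 and 233 RPM in high code libraries, a difference of -3.25 ± 0.18. Hmox1, the haem-degrading oxygenase, had 17.6, 11.4 and 16.3 RPM in low code libraries and 97.4, 128 and 70.7 RPM in high code libraries, a difference of -2.59 ± 0.25. The sides did not overlap for either gene. Nqo1, a quinone reductase, differed by -1.89 ± 0.16, and Gclm, the regulatory subunit of glutathione synthesis, by -1.66 ± 0.17. Txnrd1, thioredoxin reductase, had 104, 82.2 and 98.1 RPM in low code libraries, against 193, 185 and 186 RPM in high code libraries, a difference of -1.03 ± 0.14. The NADPH-forming enzymes G6pdx, Pgd and Me1 differed by -1.47, -1.23 and -1.53. Ftl1, the ferritin light chain, differed by -1.82 ± 0.21, but shares 355 exonic bases with Gm10252 on the opposite strand. With the acinar covariate the median was -0.88 and 1 member was called.

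Enzymes that remove peroxide and superoxide had 14 of 21 called lower and 2 higher, with a median of -0.56. The glutaredoxin gene Glrx differed by -1.47 ± 0.13, the thioredoxin gene Txn1 by -1.26 ± 0.16 and the peroxiredoxin gene Prdx1 by -1.16 ± 0.15. Those called higher were Mgst1 at 1.07 and Sod3 at 0.82.

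The gene with the largest difference toward lower RNA among those named was Cyp1a1, the dioxin-inducible cytochrome P450. It had 0.343, 0 and 0.370 RPM in KO B114, HET B123 and KO B125, against 37.2, 51.5 and 50.3 RPM in HET B126, HET B127 and KO B130, a difference of -5.36 ± 0.18. Tiparp, another target of the aryl hydrocarbon receptor, went the other way, at 2.14 ± 0.18. The following lists were written after values were seen, so their counts only describe. Of 18 glutathione transferases, 11 were called lower and 2 higher, with Gstp1 at -3.16 ± 0.16. Gstp1 has a near-identical copy, Gstp2, so reads may be split between them. Of 11 UDP-glucuronosyltransferase loci, 11 were called lower, but 9 of them belong to the Ugt1a cluster, whose members share last exons and so count the same reads. Ugt2b34, outside that cluster, had 29.1, 21.8 and 26.6 RPM in low code libraries and 93.0, 101 and 115 RPM in high code libraries. The BMP targets Id2 and Id3, inhibitors of basic helix-loop-helix factors, differed by -2.13 ± 0.16 and -1.88 ± 0.20, and Id1 was not called.

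Other named genes at the low end included Meltf, an iron-binding surface protein, at -3.90 ± 0.23, and Hfe, a regulator of iron uptake, at -2.89 ± 0.26. Gsdma, a gasdermin, had 15.1, 9.92 and 11.3 RPM in low code libraries, against 133, 162 and 84.3 RPM in high code libraries. Mgp, a calcification inhibitor, differed by -3.15 ± 0.23, Dlk1, an imprinted Notch ligand, by -2.74 ± 0.28, and Gpx2, a glutathione peroxidase, by -2.61 ± 0.15. At the other end, Dmbt1, a mucin-like secreted protein, had 113, 504 and 276 RPM in low code libraries and 9.60, 2.17 and 4.85 RPM in high code libraries, in the same order as the acinar share on the low code side.

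Lysosomal genes had 19 of 28 called lower in low code libraries and 1, Gla, higher, with a median of -0.64. The protease gene Ctsl had 147, 112 and 114.1 RPM in low code libraries and 281, 323 and 308 RPM in high code libraries, a difference of -1.33 ± 0.16. Grn, encoding progranulin, differed by -1.20 ± 0.16. Ctsb differed by -1.26 ± 0.18 and shares 774 exonic bases with Fdft1 on the opposite strand. The median was -0.30 with the acinar covariate.

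Proteasome subunits had 26 of 37 called lower and 0 higher, and cytosolic ribosomal proteins 52 of 82 called lower and 0 higher, each with a median of -0.57. With median-of-ratios scaling 20 proteasome subunits were called lower at a median of -0.46, and 22 ribosomal proteins at a median of -0.45. Scaling to listed reads outside acinar genes called 29 ribosomal proteins lower. With the acinar covariate 0 members of either list were called, and the medians were -0.43 for proteasome subunits and -0.33 for ribosomal proteins. Rpl29 had 16.5, 17.1 and 14.3 RPM in low code libraries and 27.3, 30.9 and 29.4 RPM in high code libraries. Psmb5, a catalytic subunit, had 30.3, 25.3 and 22.9 RPM in low code libraries and 48.4, 51.1 and 53.1 RPM in high code libraries.

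Nuclear genes of the respiratory chain had 19 of 31 called lower and 1 higher, with a median of -0.50. With median-of-ratios scaling 11 were called lower, with upper quartile scaling 12, and with the acinar covariate 0, at a median of -0.24. Ndufa9, a subunit of complex I, had 14.4, 16.1 and 14.6 RPM in low code libraries and 36.9, 41.4 and 40.4 RPM in high code libraries. The mitochondrially encoded subunits had 0 of 10 called and a median of 0.20, which was -0.20 between KO libraries and 0.67 between HET libraries, and was -0.95 with the acinar covariate. Glycolytic enzymes had 7 of 13 called lower and 0 higher, with Aldoa at -0.97 ± 0.18 and Eno1 at -0.93 ± 0.15. Their median of -0.47 turned to 0.07 with the acinar covariate, where 0 were called, and 4 were called lower with median-of-ratios scaling. Of 25 genes of cholesterol synthesis and uptake, 5 were called higher and 9 lower. Hmgcs1 and Idi1, early enzymes of that pathway, differed by 1.60 ± 0.19 and 1.12 ± 0.19, and Mvk by -1.11. Hmgcs1 shares 557 exonic bases with AC123738.2 on the opposite strand. Among fatty acid synthesis genes, 6 of 18 were called lower and 1 higher, against 19.6% and 11.0% of all genes. Acly, which makes cytosolic acetyl-CoA, was at -0.94 ± 0.21.

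Splicing factor genes and nuclear noncoding RNAs were called in 1 direction, higher in low code libraries. Of 25 splicing factors, 11 were called higher and 0 lower, with a median of 0.44. The splicing kinase gene Clk1 had 145, 148 and 167 RPM in low code libraries and 45.6, 41.2 and 89.3 RPM in high code libraries, with KO B130 nearest to the low code side. Of 12 nuclear long noncoding RNAs, 5 were called higher and 0 lower, with Malat1 at 1.04 ± 0.21 and Miat at 1.04 ± 0.19. Of 67 replication-dependent histone genes, 18 passed the filter on low values and 9 of these were called higher. The splicing factor median was -0.03 with the acinar covariate.

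Called genes also differed in length and base composition. Among protein-coding genes with an annotation, the median exonic length was 5177 bases for those called higher, 3356 bases for those called lower and 4582 bases for all tested. The median GC content of each gene's longest transcript was 48.6%, 52.7% and 49.8% in the same order, whereas exonic length merges all transcripts of a gene. Exonic length was at most 2000 bases in 10.02%, 20.7% and 12.3%, and 3.42%, 1.96% and 2.10% had no intron. RNA integrity values were not used here, and what these differences come from was not tested.

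Beta cell genes had no common direction. Of 27, 5 were called higher and 6 lower, with a median of -0.15, close to the shift of all genes. Ins2 had 85827, 64036 and 63779 RPM in low code libraries, against 70336, 69481 and 82923 RPM in high code libraries, and the sides overlapped. Ins1 differed by 0.04 ± 0.18, Pdx1 by -0.32 ± 0.16 and the glucose transporter Slc2a2 by 0.05 ± 0.17, none of them called. Mafa, a factor of mature beta cells, had 70.6, 49.3 and 57.5 RPM in low code libraries and 194, 133 and 94.4 RPM in high code libraries, a difference of -1.12 ± 0.27. Iapp, the amyloid peptide co-secreted with insulin, differed by -0.69 ± 0.19, and the maturity marker Ucn3 by -0.59. G6pc2, which opposes glucokinase, differed by 1.11 ± 0.19, and Nkx6-1 by 0.60. Of 32 genes of insulin granule exocytosis, 2 were called higher and 8 lower, near the shares of all genes (11.0% and 19.6%), and 4 were called lower with median-of-ratios scaling. Cplx2, which clamps and primes vesicle fusion, was at -0.97 ± 0.14. The granule protein Ptprn differed by -0.91 ± 0.16, while Chga, the most abundant granin, was not called.

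Genes that beta cells normally keep silent had 6 of 14 members called higher and 2 lower. Zyx, a focal adhesion protein, had 50.02, 55.6 and 57.3 RPM in low code libraries and 13.1, 13.3 and 11.5 RPM in high code libraries, a difference of 2.06 ± 0.13. Catalase, Cat, was called lower at -1.14 ± 0.19.

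Alpha cell genes were low in low code libraries, with 8 of 12 called lower, 0 higher and a median of -1.01. Irx2, a homeobox factor gene of alpha cells, had 7.95, 4.78 and 5.85 RPM in low code libraries, against 16.0, 15.1 and 18.8 RPM in high code libraries, a difference of -1.43 ± 0.16. Gcg, the glucagon gene, had 15420.0, 10177 and 12804 RPM in low code libraries, against 19009, 16295 and 29467 RPM in high code libraries, a difference of -0.93 ± 0.18. The median was -0.90 with the acinar covariate, where 0 members were called, and -0.70 for members with a mean of at least 5 RPM. Of 9 delta and PP cell genes, 3 were called lower and 0 higher, near the 30.6% called of all genes. The peptide gene Pyy had 311, 234 and 304 RPM in low code libraries and 814, 939 and 1039 RPM in high code libraries, a difference of -1.83 ± 0.15. Sst, the somatostatin gene, differed by 0.14 ± 0.22 and Ppy by -0.66 ± 0.28, and neither was called.

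Acinar genes held 0.697%, 6.35% and 2.65% of listed reads in KO B114, HET B123 and KO B125, against 0.158%, 0.0933% and 0.176% in HET B126, HET B127 and KO B130. Every low code library thus held more than every high code library, and KO B114 was the lowest of its side. Of 29 acinar genes tested, 11 were called higher and 0 lower, with a median of 4.14. For 27 of them every low code library lay above every high code library, against 16.8% of all genes. Rnase1, the pancreatic ribonuclease, had 81.6, 845 and 321 RPM in low code libraries, against 7.01, 4.34 and 6.08 RPM in high code libraries, a difference of 5.77 ± 0.95. Ctrb1, the most abundant acinar transcript here, had 725, 5479 and 2336 RPM in low code libraries, against 275, 152 and 309 RPM in high code libraries, and was not called (limma adjusted p = 0.0758). The median was 2.67 without HET B123 and 5.58 without KO B130. Since the acinar share and the code side move together in only 6 libraries, their parts in the differences cannot be told apart. The fit that holds both cannot divide them either.

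Markers of other cells moved less and in mixed directions. Levels were summed over all listed markers, tested or not, in low code and in high code libraries. The 20 macrophage markers (16 tested) had 314 to 454 and 246 to 271 RPM. The 17 endothelial markers (16 tested) had 328 to 413 and 402 to 465 RPM. For 18 stellate and fibroblast markers (16 tested) the sums were 177 to 311 and 176 to 229 RPM. For 18 duct markers (17 tested) they were 1763 to 1801 and 1368 to 1738 RPM. Of the macrophage markers, 7 were called higher and 2 lower. The antigen-presenting genes H2-Ab1 and Cd74 differed by 1.72 ± 0.19 and 1.06 ± 0.18, while Cd68, a lysosomal membrane protein, had 4.69, 3.56 and 3.50 RPM in low code libraries and 28.4, 29.5 and 16.9 RPM in high code libraries. The macrophage list thus has its members on both sides. Its median of 0.43 was 1.01 with the acinar covariate, where 3 members were called higher and 0 lower. Of the stellate markers, 5 were called higher and 3 lower, with the pericyte gene Rgs5 at 2.34 ± 0.16 and Pdgfrb at -1.51, and the list's median of 0.50 was -0.39 with the acinar covariate. Of the duct markers, 6 were called higher and 2 lower (8 and 1 with median-of-ratios scaling), with Krt8 at 1.55 ± 0.17 and Krt7 at -1.41. Of the endothelial markers, 1 was called higher and 4 lower, near the 30.6% called of all genes. Lymphocyte and adipocyte markers summed to at most 8.69 RPM in any library, and haemoglobin Hbb-bs was at 2.19 to 4.98 RPM in low code and 0.151 to 0.310 RPM in high code libraries. The part of these cells in the differences was not tested.

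Genotype was not used to set the sides. With the code side in the fit, 0 of 14238 genes were called between KO and HET (0.0%), with 767 at an unadjusted limma p under 0.05 and a lowest adjusted p of 0.0965. The count of 0 did not hold when single libraries were left out, with 41 genes called without HET B123, 22 without KO B130 and 1 without HET B127. The low minus high difference was computed from separate libraries in each genotype, 2 against 1 in KO and 1 against 2 in HET. Over the 14238 genes these 2 differences had a Pearson r of 0.72 and the same sign for 74.3%, as a description of libraries on which the sides were proposed. Medians in KO and HET were 2.49 and 2.77 for immediate early genes, 1.07 and 1.53 for heat shock chaperones, -1.15 and -1.34 for NRF2 targets, and 2.67 and 5.58 for acinar genes.

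**Figure D4:**
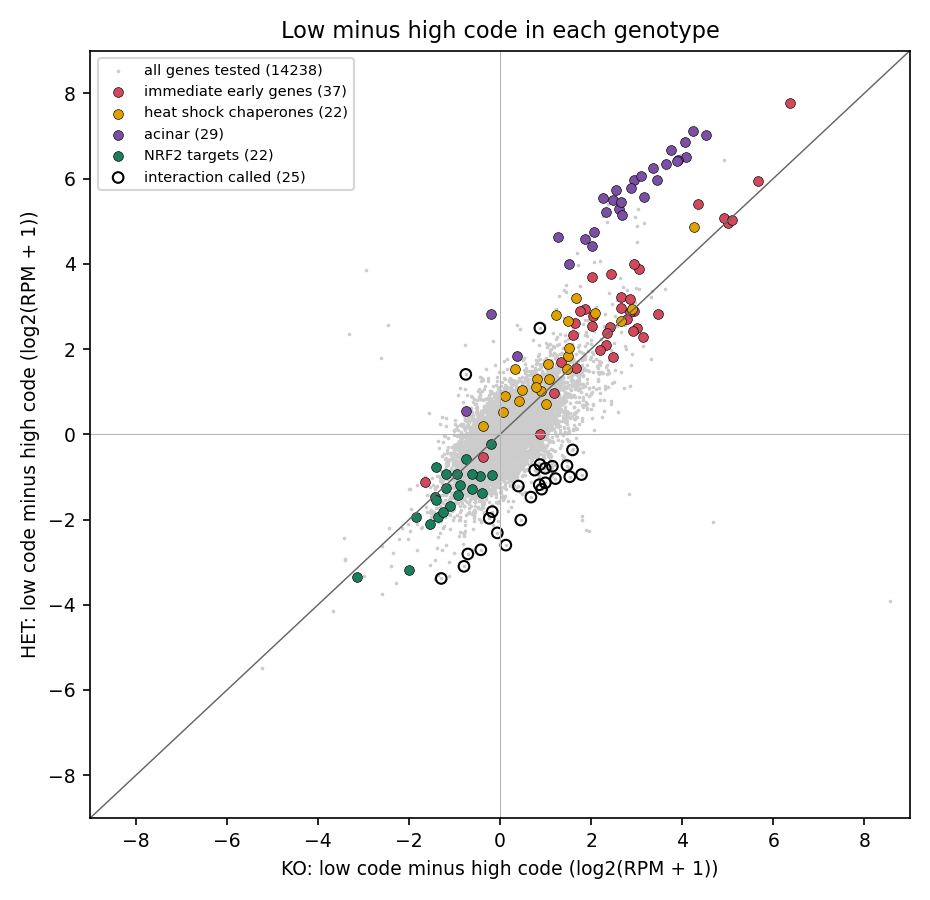
Low minus high code difference in KO (x axis) and HET (y axis) on the log2(RPM + 1) scale for 14238 genes, with 4 lists and the 25 genes called for the interaction marked. Acinar genes lie above the diagonal, immediate early and NRF2 genes near it, and 23 of the 25 interaction genes below it.

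The interaction of code side and genotype called 25 genes (0.176%) by limma, 23 with a positive and 2 with a negative coefficient. A positive coefficient means that the signed low minus high difference was higher in KO than in HET, whichever was larger in size. HET B123 and KO B130 are each alone in their genotype and side, so these calls compare single libraries and are no test of a difference between genotypes. In all 23 positive genes the lowest library was 1 of these 2, which the contrast itself favours. The libraries also differ in sex-linked RNA, and sex was in no fit. The mean centred level of 5 sex-linked genes was -1.80 in KO B114, -1.83 in HET B126 and 1.87 in KO B125. It was 0.67 in HET B123, 0.51 in HET B127 and 0.59 in KO B130. HET B123, HET B127 and KO B130 were thus close in it, and its part in these calls was not tested. KO B125, which held both Xist and Ddx3y RNA, had the highest level, so this mean does not give the sex of a library. Glp1r, the receptor for the incretin GLP-1 on beta cells, had 113.8, 41.6 and 99.7 RPM in KO B114, HET B123 and KO B125, against 181, 162 and 77.5 RPM in HET B126, HET B127 and KO B130. Its low minus high difference was 0.45 in KO and -2.01 in HET (interaction 2.47 ± 0.26, adjusted p = 0.00787). Igfbp5, an IGF-binding protein, had 110.5, 35.4 and 103 RPM in low code libraries and 233, 242 and 143 RPM in high code libraries (interaction 2.29 ± 0.25, adjusted p = 0.00787). For both genes HET B123 was the lowest library, and it was also the one with the most acinar RNA, whose part was not tested. Leaving out a library that is not alone changed the count to between 40 and 590 genes.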

How the data were processed

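Poly(A)-based RNA-seq libraries of whole islets, 1 per title code, were analysed. The submitters' processing notes name the GRCm38 genome, HISAT2 and DESeq2, without roles or versions. The counting program, its annotation and its strand setting are not given in the sources used. The authors deposited log2 values for 34245 genes, log2 RPM, with genes without reads written as 0.9 read. Reads and denominators were recovered from the steps between values (100% of 93649 values below 1000 reads were whole to within 0.01), and genes without reads were set to 0. A value of 3 reads, 0.0845 to 0.109 RPM, is the limit that a count of 0 allows, for counting error only. Identifiers came from GENCODE M21 by position (92.7% of genes).

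Low minus high code differences, with genotype as covariate, came from limma 3.58.1 (R 4.3.3; trend and robust moderation, Benjamini-Hochberg) on log2(RPM + 1) for genes averaging 1 RPM or more. This scale understates changes of genes with few reads, and RPM is not per length, so levels are not compared between genes. The members and gene lists were chosen with earlier results of these data known, and 4 lists after values were seen. Named genes were the 10 per direction with the widest called, non-overlapping difference and a mean of at least 10 RPM, the 3 most different and the most abundant member of each list, a fixed set of hormone, identity and stress genes, and the leading interaction genes. The text gives part of them and adds other list members, chosen after their values were seen. Results for 4 of the genes are not reported here. Nothing states that libraries come from separate animals, so p-values measure the spread between libraries. Figures used matplotlib 3.10.9.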

Additional observations from a re-analysis of the deposited data

Results flagged for a closer look

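For 5 of the named genes the limma interaction of code side and genotype passed over all genes. It sets HET B123 and KO B130, each alone for its genotype and code side, against the other 4 libraries, so it does not test whether the genotypes differ. Glp1r, the GLP-1 receptor gene, had an interaction of 2.47 and Igfbp5 one of 2.29, with the values given above. L1cam, an axonal adhesion protein gene, had 13.1, 7.37 and 17.5 RPM in KO B114, HET B123 and KO B125, against 15.9, 14.4 and 3.68 RPM in HET B126, HET B127 and KO B130 (interaction 2.73). It shares 100 exonic bases with Arhgap4 on the same strand. Slc15a2, a peptide transporter gene, had 4.35, 11.3 and 4.88 RPM in low code libraries and 3.80, 3.50 and 8.45 RPM in high code libraries (interaction -2.16). Gm15344, a predicted transcript that shares 84 exonic bases with the chaperone gene Hsp90b1, had 50.9, 119 and 63.3 RPM in low code libraries and 19.1, 21.7 and 30.5 RPM in high code libraries (interaction -1.62). In each of the 5, HET B123 or KO B130 was the lowest or the highest library, which the contrast itself favours. Whether these 2 libraries or the genotypes differ cannot be told apart.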

How the results depend on the processing

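Genes called higher in low code libraries numbered 760 at a threshold of 0.01, 646 with a difference of at least 1, 56 with the acinar covariate, and 1051 to 1785 without 1 library. Genes called lower numbered 939, 342, 16 and 1011 to 2867 under these settings, 1766 with median-of-ratios, 1773 with upper quartile scaling and 1792 with scaling outside acinar genes. Without HET B123 the calls were 1133 higher and 1011 lower, without KO B125 1051 and 1744, and without HET B127 1070 and 1285. Genotype called 0 to 41 genes without 1 library (41 without HET B123, 22 without KO B130, 1 without HET B127). The interaction called 51 genes with a pseudocount of 0.5, 53 among genes averaging 5 RPM or more, 66 with median-of-ratios scaling, and 40 to 590 without 1 library. Leaving out 1 library kept the sign of the difference in listed share (-1.97 to -0.65 percentage points) and in the number of genes with a read (633 to 918.5). The acinar covariate is computed from the acinar genes themselves, so it takes out their own difference by construction and does not test that list. List medians with the acinar covariate were 0.83 for heat shock, 2.13 for immediate early, 0.98 for NF-kB, -0.88 for NRF2 and -0.14 for acinar genes. Without 1 library they were 1.07 to 1.53, 2.51 to 2.77, 1.42 to 1.70, -1.34 to -1.12 and 2.67 to 5.58 in the same order. NRF2 targets had -1.31 with a pseudocount of 0.1 and -1.33 by limma-voom, and alpha cell genes -0.70 when averaging 5 RPM or more. With the acinar covariate the difference turned for Cirbp (0.18), Mt1 (0.54), Acads (0.25), Rab37 (0.30), Prpf38b (-0.32), Mt2 (0.37) and Smad6 (0.17). Without 1 library, L1cam ranged from -0.95 (without KO B130) to 1.79 and Slc15a2 from -0.75 (without HET B123) to 1.41. The cause was not tested. No paired analysis was possible because the labels give the libraries no replicate numbers. With 3 libraries a side, exact tests of single values cannot go below p = 0.1.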

Other observations

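Several gene groups lay close to the median of all genes or had members on both sides. Of 25 p53 and apoptosis genes, 8 were called higher and 5 lower in low code libraries. Among them, the immediate early regulator Btg2 and the cell death gene Pmaip1 differed by 2.28 ± 0.25 and 1.51 ± 0.25, and Bax by -1.01. Of 18 hypoxia-induced genes, 3 were called higher and 5 lower, with the collagen hydroxylase gene P4ha2 at 1.01 ± 0.14 and Ero1l at -0.97 ± 0.20. Of 20 fatty acid oxidation genes, 1 was called higher and 6 lower, with the carnitine enzyme gene Cpt2 at -1.17 ± 0.14, and the median of -0.19 was 0.23 with the acinar covariate. Cell cycle genes had 0 of 27 called higher and 2 lower, the replication helicase genes Mcm7 and Mcm6 at -0.51 and -0.47, and 0 were called with median-of-ratios scaling. Mcm7 shares exonic bases with Cops6 and Ap4m1.

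Cold-inducible RNA-binding genes had no common direction. Rbm3 had 48.3, 23.9 and 43.3 RPM in low code libraries and 59.2, 66.4 and 69.5 RPM in high code libraries, a difference of -0.97 ± 0.18. HET B123 was the lowest library for Rbm3, and the low code libraries lay below the high code libraries. Reg3d, a regenerating protein gene of exocrine tissue, had 2.74, 18.1 and 4.94 RPM in low code libraries, against 0.197, 0.0905 and 0.0364 RPM in high code libraries. Reg1 had 111, 927 and 219 RPM in low code libraries and 28.2, 15.3 and 29.4 RPM in high code libraries, and was not called (limma adjusted p = 0.0572). Among 5 Schwann cell markers tested, 2 were called higher, with the receptor gene Ngfr at 1.42 ± 0.23. Cdh19, another of them, was at 6.36 RPM in KO B125 and at or below 0.548 RPM in the other 5 libraries.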
